A study of Mus musculus with 12 samples.

Results

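Regulatory T cells taken from leukemic bone marrow under a Tbet-KO label were set against wild-type regulatory T cells from marrow without leukemia, using 3 libraries labelled Tbet-KO Treg and 3 labelled No Tumor, which are 6 of the 12 libraries of the series. The members were chosen by their labels, with earlier results of these data known, and all genes were compared. Every library came from bone marrow of C57BL/6 mice, from cells sorted on day 14, and was sequenced as bulk RNA. Per the study's methods, recipients were lethally irradiated and given T cell-depleted marrow together with conventional T cells and Treg cells.

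In the Tbet-KO Treg group the transferred Treg cells lacked Tbet (Tbet-/-) and the mice had also received MLL-AF9 leukemia cells, a retrovirally made mouse leukemia line that expresses eGFP. In the No Tumor group the transferred Treg cells were WT cells of a Foxp3-eGFP reporter strain and no leukemia cells were given. The gate differed as well. Per the methods the Tbet-/- cells were sorted as CD4+CD25+CD127- cells and the WT cells as CD4+CD25+ cells positive for eGFP, so genotype, leukemia and gate cannot be told apart in this comparison. Another group, labelled WT Treg, came from WT cells of leukemic marrow. Their values are given as context where they help place a gene. The sources used here do not say whether each library is a separate mouse, and the p-values measure the spread between these libraries, which may be technical.

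Treg cells are CD4+ T cells that restrain other immune cells under the control of the transcription factor Foxp3. T-bet, encoded by Tbx21, is a T-box factor that drives the type 1 program of T cells with interferon gamma and the chemokine receptor Cxcr3, whereas Gata3 drives the type 2 program with the cytokines IL-4, IL-5 and IL-13. ST2, encoded by Il1rl1, is the receptor for the alarmin IL-33 and marks Treg cells of non-lymphoid tissues, group 2 innate lymphoid cells, mast cells and basophils. Il13 and Il5 lie in one cytokine cluster on mouse chromosome 11.

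The promoters of Il13, Il5 and Il1rl1 are shown. Il13 and Il5 had the largest differences among the cytokines of the type 2 list described further on, and Il1rl1 encodes ST2, the receptor the study is about. Each window runs from 250 bases before to 50 bases after an annotated RefSeq start on GRCm38.p6, written 5′ to 3′ on the strand of the gene. The letters AGATAA, a core that GATA factors bind, or their reverse complement TTATCT are in capitals. Il13 is on the minus strand at chr11:53634653-53634952, Il5 on the plus strand at chr11:53720544-53720843, and Il1rl1 has 2 starts on the plus strand, at chr1:40429320-40429619 and chr1:40439379-40439678.
Il13: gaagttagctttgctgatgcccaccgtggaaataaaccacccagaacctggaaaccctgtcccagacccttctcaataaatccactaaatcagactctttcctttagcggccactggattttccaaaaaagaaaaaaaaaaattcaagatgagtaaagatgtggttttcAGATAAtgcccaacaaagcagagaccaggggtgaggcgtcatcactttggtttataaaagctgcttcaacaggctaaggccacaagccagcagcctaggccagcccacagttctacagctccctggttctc
Il5: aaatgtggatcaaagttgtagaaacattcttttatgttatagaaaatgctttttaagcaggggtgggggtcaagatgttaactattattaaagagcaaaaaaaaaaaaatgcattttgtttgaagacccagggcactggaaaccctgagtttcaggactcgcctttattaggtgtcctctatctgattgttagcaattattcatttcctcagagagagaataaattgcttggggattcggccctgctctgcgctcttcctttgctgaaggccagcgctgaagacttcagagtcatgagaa
Il1rl1, first start: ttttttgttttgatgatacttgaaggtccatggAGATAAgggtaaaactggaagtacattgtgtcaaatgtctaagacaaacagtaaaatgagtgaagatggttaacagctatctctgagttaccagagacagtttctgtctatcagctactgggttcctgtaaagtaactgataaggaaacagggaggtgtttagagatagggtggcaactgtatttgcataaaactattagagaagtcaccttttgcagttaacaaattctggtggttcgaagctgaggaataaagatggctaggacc
Il1rl1, second start: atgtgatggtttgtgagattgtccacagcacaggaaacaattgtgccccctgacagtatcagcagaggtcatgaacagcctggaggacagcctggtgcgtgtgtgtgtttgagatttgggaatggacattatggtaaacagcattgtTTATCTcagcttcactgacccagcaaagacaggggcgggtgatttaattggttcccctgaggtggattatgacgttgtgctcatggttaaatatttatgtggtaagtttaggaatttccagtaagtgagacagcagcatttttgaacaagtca
The letters were found in the Il13 window and in both Il1rl1 windows and not in the Il5 window. The 14 type 2 genes that could be tested had 16 windows, of which 5 held the letters (those of Il13, Il9r, Ccr3 and Il1rl1), against 3672 of all 32851 promoter windows (11.2%). A match describes the sequence only, and the absence of these letters says nothing of a factor.

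Tbx21, the gene named by the genotype label, had overlapping low values in both groups under TMM scaling and was lower in the libraries labelled Tbet-KO with T cell gene scaling, which is described further on. It had 16.1, 14.0 and 13.8 CPM (counts scaled to 1000000 per library, after scaling by the trimmed mean of M values, TMM) in the libraries labelled Tbet-KO, 41.7, 36.2 and 38.1 CPM in the WT Treg libraries of leukemic marrow and 12.2, 17.5 and 16.6 CPM in the No Tumor libraries. The Tbet-KO and No Tumor values overlapped, and the 6 values all lay below those of the WT Treg libraries. The log2 fold change of the libraries labelled Tbet-KO over No Tumor was -0.08 ± 0.13 (standard error, 3 libraries each, edgeR quasi-likelihood adjusted p = 0.59). With T cell gene scaling it was -1.64 (edgeR adjusted p = 8.9e-24), a scaling that lowered 88% of all genes. The gene lies at chr11:97098071-97115331 on the minus strand (GRCm38), and counts per gene do not show whether the remaining reads come from an exon outside a deletion or from other cells. Since the call depends on the scaling, this contrast does not check the genotype label, and the group is called by its label throughout. The 40 tested genes within 1000000 bases of Tbx21 included 22 that were higher and 9 that were lower, 77.5% called against 64.2% of all tested genes, with a median log2 fold change of 0.20. The nearest tested genes on either side, Osbpl7 and Tbkbp1, were at 0.20 and 1.16 on the log2 scale, and farther out Skap1, an adaptor of T cell receptor signaling, was at 1.71 and Arl5c at -4.17.

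Most of the transcriptome differed between the groups. Of 13782 genes tested, 8852 (64.2%) passed an adjusted p of 0.05, 4396 (31.9%) of them up and 4456 (32.3%) down in the libraries labelled Tbet-KO. With a log2 fold change beyond 1 as well, 2805 genes (20.4%) were called, 1488 (10.8%) higher and 1317 (9.56%) lower. The replicates were close, with a common biological coefficient of variation of 5.53%, so small differences passed the test, and a list in which about 64.2% of members pass is at the level of all genes. Library totals were 13782061 to 16568031 counts in the Tbet-KO group and 14161886 to 17101634 counts in the No Tumor group, so depth was alike, and the ribosomal RNA gene Rn45s took 4.72 to 5.20% and 4.49 to 4.93% of the counts. With 3 libraries against 3, an exact permutation test of a single value cannot go below 0.1, and none is given.

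The libraries were not made up of T cells alone, and the share of T cell transcripts differed between the groups. The 15 genes of the T cell receptor complex and its coreceptors summed to 2204 to 2249 CPM in the libraries labelled Tbet-KO and 745 to 779 CPM in the No Tumor libraries, while 21 genes of B lineage identity summed to 437 to 444 CPM and 5776 to 5855 CPM. Granule genes of neutrophils were abundant in both, with the lactoferrin gene Ltf at 1942, 1981 and 1969 CPM in the libraries labelled Tbet-KO and 2310, 2300 and 2332 CPM in the No Tumor libraries. In bulk samples fewer cells of a type and less RNA per cell cannot be told apart. The fit was therefore repeated with each library scaled to its 15 T cell receptor and coreceptor genes, which moved the median of all genes by -1.56 on the log2 scale and gave 386 genes higher (2.8%) and 12127 lower (88%), 90.8% of genes called. A gene or list that was higher by less than this shift under TMM scaling was lower relative to T cell genes, and this is stated with each list. A list with about 88% of its members lower on this scaling is at the level of all genes. Counts of list members on this scaling are to be read beside these shares of 2.8% higher and 88% lower.

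**Figure D1:**
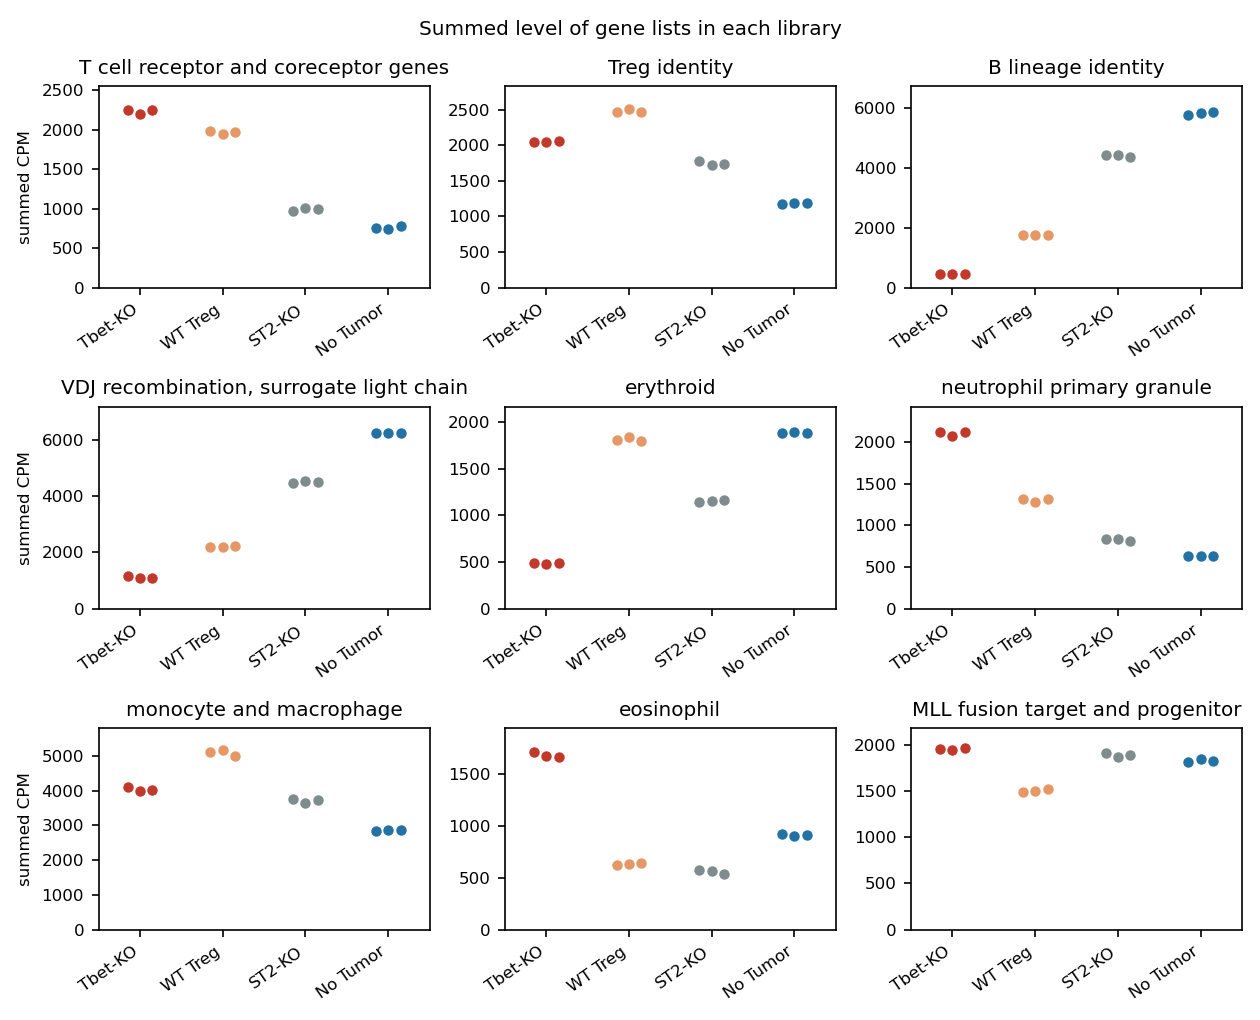
Summed level (CPM, TMM scaling, axes from 0) of 9 gene lists in each library, with 1 point per library and the groups from left to right Tbet-KO, WT Treg, ST2-KO and No Tumor. T cell receptor genes summed to 2204 to 2249 CPM in the libraries labelled Tbet-KO and 745 to 779 CPM in No Tumor libraries, and B lineage genes to 437 to 444 CPM and 5776 to 5855 CPM, and replicates of a group lay close together.

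Type 2 genes were higher in the libraries labelled Tbet-KO, several of them by more than any T cell receptor gene. All 14 tested genes of the type 2 list of 16 were called higher, with a median log2 fold change of 1.99 against 0.00 for all genes tested, and with T cell gene scaling 8 were higher, 3 lower and the median was 0.43. The list was chosen with earlier results of these data known, so this count is not independent evidence. It also holds Retnla, a gene of the macrophage response, and Vdr, the vitamin D receptor gene. Their summed level was 1013 to 1037 CPM in the libraries labelled Tbet-KO, 510 to 536 CPM in WT Treg libraries and 287 to 300.0 CPM in No Tumor libraries. Il9 and Ptgdr2 were not among the genes that passed the filter on low counts.

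Il13 and Il5 were nearly absent without leukemia. Il13, a cytokine of type 2 responses, had 78.9, 73.9 and 72.3 CPM in the libraries labelled Tbet-KO, 0.485, 0.517 and 0.611 CPM in WT Treg libraries and 0.0728, 0.303 and 0.197 CPM in No Tumor libraries. The log2 fold change was 8.51 ± 0.23 (edgeR adjusted p = 3.8e-50). Il5, the eosinophil growth factor of the same cluster, had 27.6, 26.3 and 22.4 CPM in the libraries labelled Tbet-KO, 0.539, 0.323 and 0 CPM in WT Treg libraries and 0.0728, 0 and 0.132 CPM in No Tumor libraries. Both genes were thus below 1 CPM in the WT Treg libraries of leukemic marrow as well, and only the libraries labelled Tbet-KO of these 3 groups had a higher level. Because Il5 had 1203 counts in the 3 libraries labelled Tbet-KO and 3 counts in the No Tumor libraries, its difference is given as the ratio of counts, 387 (95% interval of the counts, 132 to 1879), with an edgeR adjusted p of 3.4e-33. Il4 was low everywhere, at 2.44, 1.83 and 3.33 CPM in the libraries labelled Tbet-KO and 1.31, 0.424 and 0.592 CPM in No Tumor libraries, and was still called higher (log2 fold change 1.71 ± 0.54, edgeR adjusted p = 0.004). Il6 stood at 3.69, 4.25 and 3.26 CPM in the libraries labelled Tbet-KO and 0.874, 0.908 and 0.460 CPM in No Tumor libraries, a log2 fold change of 2.31. Neither Il4 nor Il6 was called with T cell gene scaling, at 0.16 (edgeR adjusted p = 0.77) and 0.76 (edgeR adjusted p = 0.15).

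The receptors and factors of the program were also higher. Il1rl1, the ST2 gene at chr1:40429570-40465415, had 258, 248 and 263 CPM in the libraries labelled Tbet-KO, 123, 127 and 136 CPM in WT Treg libraries and 76.7, 79.0 and 74.8 CPM in No Tumor libraries. Its log2 fold change was 1.74 ± 0.05 (edgeR adjusted p = 5.0e-50) that shrank to 0.18 with T cell gene scaling. Gata3 had 289.9, 276 and 280.4 CPM in the libraries labelled Tbet-KO, 127, 119 and 129 CPM in WT Treg libraries and 56.2, 56.0 and 61.3 CPM in No Tumor libraries. The log2 fold change was 2.29 ± 0.05 (edgeR adjusted p = 1.0e-57), or 0.73 with T cell gene scaling. For both genes the order of the groups was libraries labelled Tbet-KO, then WT Treg, then No Tumor, with no overlap. Il17rb, a subunit of the receptor for the alarmin IL-25, averaged 46.7 ± 2.72 CPM in the libraries labelled Tbet-KO and 11.6 ± 0.136 CPM in No Tumor libraries (SD, n = 3 each), and Il9r, the IL-9 receptor, averaged 37.9 ± 0.206 CPM and 9.67 ± 0.811 CPM. Vdr, the vitamin D receptor, was at 44.1, 43.01 and 43.4 CPM in the libraries labelled Tbet-KO and 2.69, 1.64 and 3.35 CPM in No Tumor libraries. Its log2 fold change was 4.09 ± 0.18 (edgeR adjusted p = 1.1e-35). The chemokine receptors Ccr4 and Ccr3 rose by 1.49 and 1.11 on the log2 scale, or -0.068 and -0.45 with T cell gene scaling, and Il4ra changed least, by 0.16, or -1.40 with T cell gene scaling, a call that was lost without No Tumor replicate 3 (0.12, edgeR adjusted p = 0.096).

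Genes that macrophages switch on in response to IL-4 and IL-13 were mostly higher under TMM scaling and divided with T cell gene scaling. This list of 11 genes, which shares Retnla with the type 2 list and Arg1 with the innate lymphoid list given next, was added after values had been seen, and of its 9 tested genes 8 rose and 0 fell in the libraries labelled Tbet-KO, with a median log2 fold change of 1.51 that became -0.052 with T cell gene scaling (4 higher, 4 lower). On that scaling 2.8% of all tested genes were higher and 88% lower. Retnla, which encodes the secreted protein RELM-alpha, had 33.8, 37.1 and 36.5 CPM in the libraries labelled Tbet-KO, 0, 0 and 0.136 CPM in WT Treg libraries and 0, 0.121 and 0 CPM in No Tumor libraries. With 1685 counts against 2, the ratio was 813 (95% interval of the counts, 225 to 6720) (edgeR adjusted p = 3.8e-39). Ccl24, an eosinophil attractant, had 6.00, 4.96 and 6.93 CPM in the libraries labelled Tbet-KO and 0.146, 0.0606 and 0.197 CPM in No Tumor libraries. The log2 fold change was 5.41 ± 0.60. The lectin gene Mgl2 rose by 2.93 and the arginase gene Arg1 by 2.24 on the log2 scale. Clec10a, another lectin gene, was not called (log2 fold change -0.67, edgeR adjusted p = 0.098).

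Group 2 innate lymphoid cells use the same cytokines and receptors, and a list of 17 of their genes, also added after values had been seen, had 15 of 16 tested genes that rose and 0 that fell in the libraries labelled Tbet-KO, with a median log2 fold change of 1.80 (0.25 with T cell gene scaling, 8 higher and 5 lower). It shares Il13, Il5, Il1rl1, Gata3, Il9r and Il17rb with the type 2 list. Among all tested genes 2.8% were higher and 88% lower with T cell gene scaling. Nmur1, the neuromedin U receptor that marks these innate cells, had 5.12, 4.19 and 5.52 CPM in the libraries labelled Tbet-KO and 1.53, 1.33 and 1.18 CPM in No Tumor libraries. The summed level of the list was 1567 to 1589.7 CPM in the libraries labelled Tbet-KO, 1119 to 1135 CPM in WT Treg libraries and 490 to 497 CPM in No Tumor libraries. The part of such cells, or of basophils and mast cells, in the cytokine result was not tested. Of 14 tested basophil and mast cell genes 6 were higher and 2 lower, 57.1% called against 64.2% of all tested genes (median log2 fold change 0.33, -1.22 with T cell gene scaling, summed level 449 to 463 CPM in the libraries labelled Tbet-KO and 239 to 250.3 CPM in No Tumor libraries). The higher genes were Il13, Il4, Il6, Gzmb, Kit (1.05) and Gata2 (0.66), of which Kit and Gata2 were at -0.51 and -0.89 with T cell gene scaling. The lower genes were the basophil proteases Mcpt8 and Prss34 (-0.73 and -1.52), and the other 6 were not called, at -0.76 to 0.36.

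**Figure D2:**
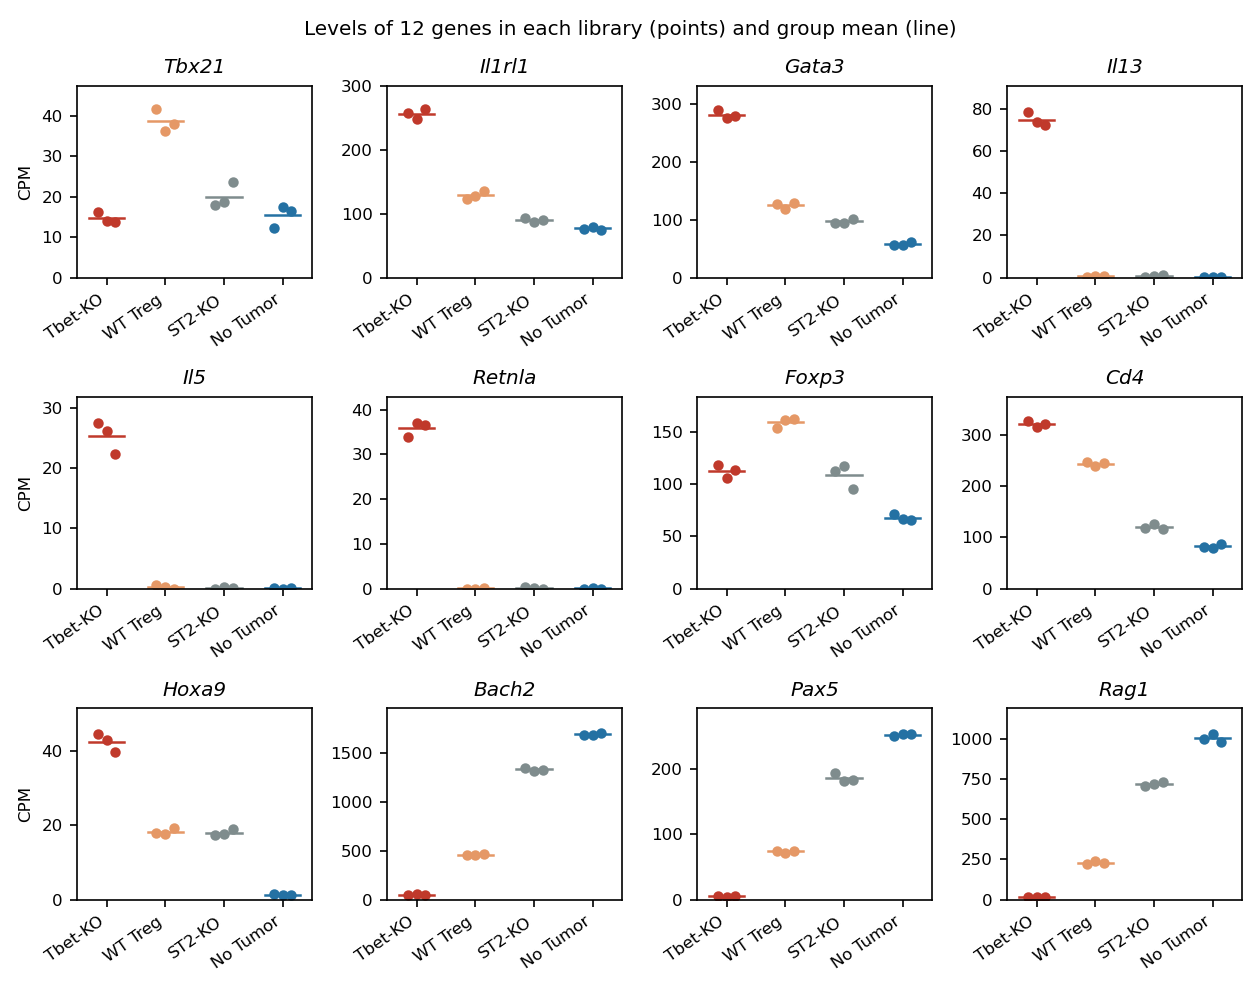
Level (CPM, TMM scaling, axes from 0) of 12 genes in each library, with 1 point per library, a line at the group mean, and the groups from left to right Tbet-KO, WT Treg, ST2-KO and No Tumor. Il13 lay at 78.9, 73.9 and 72.3 CPM in the libraries labelled Tbet-KO and below 1 CPM in the No Tumor libraries, Tbx21 overlapped between these groups, and Bach2, Pax5 and Rag1 were far lower in the libraries labelled Tbet-KO.

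T cell genes were higher throughout in the libraries labelled Tbet-KO. All 15 tested genes of the T cell receptor and coreceptor list were called higher, with a median log2 fold change of 1.56 that is 0.00 by construction when the libraries are scaled to these genes. Cd4, which the sort used, had 327, 314 and 320.2 CPM in the libraries labelled Tbet-KO, 247, 238 and 245 CPM in WT Treg libraries and 81.4, 79.9 and 87.7 CPM in No Tumor libraries. Its log2 fold change was 1.95 ± 0.04 (edgeR adjusted p = 7.6e-57). Cd247, the zeta chain of the receptor, had the largest difference of the list (127, 135 and 138 CPM in the libraries labelled Tbet-KO and 24.4, 26.5 and 26.8 CPM in No Tumor libraries, log2 fold change 2.36), and Cd2, an adhesion receptor, the smallest (0.55). The members thus differed by more than a common factor. The 2 CD8 genes were not called in either direction under TMM, and Cd8a was at -1.95 with T cell gene scaling, with Cd8a at 6.44, 7.73 and 5.73 CPM in the libraries labelled Tbet-KO and 9.47, 7.75 and 9.01 CPM in No Tumor libraries (log2 fold change -0.39 ± 0.20, edgeR adjusted p = 0.077, or 0.045 without Tbet-KO Treg replicate 2 and 0.046 in a fit of these 6 libraries alone).

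Core Treg genes were higher by less than the T cell genes as a whole. Of 18 tested Treg identity genes 14 rose and 1 fell in the libraries labelled Tbet-KO, with a median log2 fold change of 0.80. With T cell gene scaling 0 were higher and 17 lower, against 2.8% and 88% of all tested genes, and the median was -0.76. Foxp3 had 118, 106 and 113 CPM in the libraries labelled Tbet-KO, 153, 161 and 162 CPM in WT Treg libraries and 71.4, 66.8 and 65.1 CPM in No Tumor libraries. The log2 fold change was 0.73 ± 0.06 (edgeR adjusted p = 3.3e-20), which turned to -0.83 with T cell gene scaling. Foxp3 was thus above No Tumor but below WT Treg in every library labelled Tbet-KO. The gate of that group did not use the Foxp3 reporter, and the part of the gate in this order was not tested. Il2ra, which encodes CD25 and was used in the sort, averaged 379 ± 9.53 CPM in the libraries labelled Tbet-KO and 253 ± 6.78 CPM in No Tumor libraries (SD, n = 3 each). Gpr83, an orphan receptor, rose by 2.32 and Nrp1, a marker of thymus-derived Treg cells, by 1.23 on the log2 scale. Lrrc32, which displays latent TGF-beta on Treg cells, and Itgae, the CD103 gene, were not called, at 14.2, 16.7 and 15.9 CPM and 19.996, 22.2 and 21.5 CPM in the libraries labelled Tbet-KO and 13.3, 17.3 and 15.1 CPM and 16.2, 22.7 and 21.7 CPM in No Tumor libraries. Socs2, an inhibitor of cytokine signaling, fell by 0.58.

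Genes of tissue and effector Treg cells were mostly higher, with 1 exception of large size. Of 25 tested genes 23 rose and 1 fell in the libraries labelled Tbet-KO (median log2 fold change 1.22), and with T cell gene scaling 7 were higher, 14 lower and the median was -0.34. Among all tested genes 2.8% were higher and 88% lower on that scaling. Areg, the repair factor amphiregulin, had 4.69, 4.72 and 3.47 CPM in the libraries labelled Tbet-KO and 0.291, 0.545 and 0.0658 CPM in No Tumor libraries (log2 fold change 3.78 ± 0.55, edgeR adjusted p = 5.9e-09). Penk, the enkephalin precursor gene, had 91.2, 89.2 and 86.8 CPM in the libraries labelled Tbet-KO, 47.2, 48.7 and 52.8 CPM in WT Treg libraries and 8.23, 8.48 and 8.62 CPM in No Tumor libraries (log2 fold change 3.40 ± 0.09, edgeR adjusted p = 1.3e-49). Pparg, the nuclear receptor of adipose tissue Treg cells, rose by 2.34, and Batf, an AP-1 factor of effector Treg cells, by 1.67 on the log2 scale. With T cell gene scaling their log2 fold changes were 2.24 for Areg, 1.84 for Penk, 0.78 for Pparg and 0.12 for Batf. Irf4, which effector Treg cells and B lineage cells both express, went the other way, with 96.1, 91.4 and 95.7 CPM in the libraries labelled Tbet-KO, 271, 268 and 268 CPM in WT Treg libraries and 826, 810.4 and 809.6 CPM in No Tumor libraries (log2 fold change -3.11 ± 0.03, edgeR adjusted p = 1.8e-80). B lineage genes fell in the same direction, and their part in the Irf4 difference was not tested.

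Suppressive and repair mediators were mostly higher under TMM scaling, and were divided with T cell gene scaling. Of 16 tested genes 12 rose and 2 fell in the libraries labelled Tbet-KO, with a median log2 fold change of 1.17 (-0.39 with T cell gene scaling, 6 higher and 9 lower). On that scaling 2.8% of all tested genes were higher and 88% lower. Il10, the anti-inflammatory cytokine, had 16.3, 15.04 and 17.1 CPM in the libraries labelled Tbet-KO and 3.20, 3.39 and 4.604 CPM in No Tumor libraries (log2 fold change 2.11 ± 0.20, edgeR adjusted p = 2.7e-16). Ebi3, a subunit of IL-35 and IL-27, averaged 42.4 ± 1.46 CPM in the libraries labelled Tbet-KO and 20.03 ± 3.77 CPM in No Tumor libraries, higher under TMM scaling and lower by 0.48 with T cell gene scaling. Its partner in IL-35, Il12a, had 2.19, 3.36 and 2.12 CPM in the libraries labelled Tbet-KO and 34.8, 35.4 and 34.5 CPM in No Tumor libraries (log2 fold change -3.75 ± 0.16, edgeR adjusted p = 7.3e-37), or -5.31 with T cell gene scaling. Tgfb1 fell by 0.38 on the log2 scale.

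Cytotoxic genes were higher in the libraries labelled Tbet-KO. Of 18 tested genes 17 were higher and 0 lower, with a median log2 fold change of 1.38, and with T cell gene scaling 6 were higher, 8 lower and the median was -0.18. Among all tested genes 2.8% were higher and 88% lower on that scaling. Gzmb, the granzyme B gene, had 128, 121 and 123 CPM in the libraries labelled Tbet-KO, 127, 132 and 132 CPM in WT Treg libraries and 35.7, 33.0 and 34.7 CPM in No Tumor libraries (log2 fold change 1.85 ± 0.06, edgeR adjusted p = 1.3e-43). Prf1, which encodes perforin, had 27.8, 25.0 and 25.1 CPM in the libraries labelled Tbet-KO and 3.71, 4.66 and 4.14 CPM in No Tumor libraries (log2 fold change 2.63), and Gzmk, the granzyme K gene, 12.6, 11.6 and 17.8 CPM and 1.46, 1.27 and 1.45 CPM (log2 fold change 3.32). Eomes, the T-box factor related to T-bet, had 48.3, 53.6 and 53.1 CPM in the libraries labelled Tbet-KO, 25.2, 24.9 and 25.4 CPM in WT Treg libraries and 6.77, 9.93 and 8.55 CPM in No Tumor libraries (log2 fold change 2.61 ± 0.12, edgeR adjusted p = 5.3e-34). Receptors of NK cells, which share these granules, had 12 of 14 tested genes higher and 0 lower (median log2 fold change 1.14, -0.42 with T cell gene scaling, summed level 397 to 412 CPM in the libraries labelled Tbet-KO and 192 to 195 CPM in No Tumor libraries), and their part in the cytotoxic result was not tested.

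Type 1 genes did not move as one. Of 16 tested Th1 and T-box genes 13 rose and 2 fell in the libraries labelled Tbet-KO (median log2 fold change 0.93, -0.63 with T cell gene scaling, 1 higher and 14 lower). With that scaling 2.8% of all tested genes were higher and 88% lower. Ifng, the interferon gamma gene, had 11.1, 12.3 and 13.3 CPM in the libraries labelled Tbet-KO, 16.7, 16.8 and 19.7 CPM in WT Treg libraries and 5.54, 7.39 and 5.72 CPM in No Tumor libraries. Its log2 fold change was 0.97 ± 0.17 (edgeR adjusted p = 4.1e-07) that was -0.59 with T cell gene scaling. Cxcr3, a direct target of T-bet, had 32.0, 26.8 and 27.1 CPM in the libraries labelled Tbet-KO, 86.9, 87.7 and 90.3 CPM in WT Treg libraries and 31.0, 40.2 and 35.7 CPM in No Tumor libraries, and it was the lower gene with the homeobox factor Hlx (log2 fold changes -0.32 ± 0.08, edgeR adjusted p = 7.3e-04, and -0.46). The Cxcr3 values of the libraries labelled Tbet-KO and of No Tumor overlapped at their edges. Responses to interferon gamma were mixed, with 10 of 20 tested genes higher and 7 lower (median log2 fold change 0.20, -1.36 with T cell gene scaling), the chemokine Cxcl9 at 15.4, 15.1 and 15.9 CPM in the libraries labelled Tbet-KO, 57.3, 58.5 and 60.6 CPM in WT Treg libraries and 10.9, 14.0 and 11.7 CPM in No Tumor libraries. Type I interferon response genes were mostly lower, with 2 of 22 higher and 15 lower (median log2 fold change -0.52, -2.07 with T cell gene scaling). Among these Mx2 fell by 2.14 and Oasl1 by 1.59, and Ifih1, an RNA sensor, rose by 0.85, or fell with T cell gene scaling.

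Checkpoint receptors and follicular helper genes included large differences. All 13 tested inhibitory checkpoint genes were higher in the libraries labelled Tbet-KO (median log2 fold change 1.33, -0.23 with T cell gene scaling, 2 higher and 6 lower). Pdcd1, which encodes PD-1, had 63.1, 58.7 and 62.8 CPM in the libraries labelled Tbet-KO, 20.3, 17.6 and 20.4 CPM in WT Treg libraries and 7.07, 8.90 and 12.1 CPM in No Tumor libraries (log2 fold change 2.71 ± 0.12, edgeR adjusted p = 2.8e-34), and Lag3, an MHC class II receptor, 35.1, 35.4 and 42.5, 14.9, 16.2 and 14.7 and 6.70, 5.87 and 6.77 CPM (log2 fold change 2.55). Of 10 tested follicular helper genes 7 were higher and 3 lower (median log2 fold change 1.90, 0.34 with T cell gene scaling). Il21, a helper cytokine for B cells, had 17.2, 16.5 and 16.2 CPM in the libraries labelled Tbet-KO, 2.75, 4.59 and 2.58 CPM in WT Treg libraries and 0.219, 1.15 and 0.263 CPM in No Tumor libraries (log2 fold change 4.85 ± 0.31, edgeR adjusted p = 5.4e-25). Tox2, a nuclear factor, rose by 3.30 and Cd40lg, the CD40 ligand gene, by 2.68, while Cxcr5 and Slamf6, which B cells also express, fell by 1.73 and 2.04 and Bcl6, the factor that defines follicular helper cells, by 0.54 on the log2 scale. The defining receptor and factor of the list were thus lower, and the part of B lineage cells, whose genes also fell, was not tested. The 5 tested Th17 genes were all higher (median log2 fold change 1.004, -0.55 with T cell gene scaling), and Il17a, Il17f and Il22 did not pass the filter on low counts.

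Receptors for cytokines, chemokines and costimulation shifted in both directions. Of 17 tested chemokine receptors 11 rose and 5 fell in the libraries labelled Tbet-KO (median log2 fold change 1.004, -0.55 with T cell gene scaling, 0 higher and 13 lower). Ccr8 and Cxcr6, receptors of tissue T cells, rose by 1.66 and 1.64 on the log2 scale, and Ccr7, which guides naive T cells to lymph nodes, had 7.19, 8.85 and 11.3 CPM in the libraries labelled Tbet-KO and 26.1, 27.9 and 28.4 CPM in No Tumor libraries (log2 fold change -1.60 ± 0.13, edgeR adjusted p = 4.9e-20). Of 11 tested costimulatory TNF receptor genes 8 were higher and 3 lower (median log2 fold change 0.55, -1.01 with T cell gene scaling). At its extremes Tnfrsf8, the CD30 gene, averaged 10.7 ± 0.775 CPM in the libraries labelled Tbet-KO and 1.18 ± 0.408 CPM in No Tumor libraries, and Tnfrsf19 averaged 2.51 ± 0.357 CPM and 89.4 ± 5.69 CPM. Of 12 tested genes of the common gamma chain receptors and their kinases 10 were higher and 1 lower (median log2 fold change 0.49, -1.07 with T cell gene scaling). The lower gene was Il7r, which encodes CD127, with 226, 227 and 235 CPM in the libraries labelled Tbet-KO, 275, 285 and 277 CPM in WT Treg libraries and 487, 476 and 462 CPM in No Tumor libraries (log2 fold change -1.05 ± 0.03, edgeR adjusted p = 3.4e-46), the surface marker against which the Tbet-/- cells were sorted and one that B cell progenitors also carry. Integrin and egress genes were higher in 14 of 19 cases and lower in 2 (median log2 fold change 0.58, -0.98 with T cell gene scaling), with Itga1, a collagen receptor of tissue-resident T cells, at 2.27.

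Factors of naive and undifferentiated lymphocytes were lower in the libraries labelled Tbet-KO, Bach2 most of all. Bach2, a repressor that holds T cells and B cells in an undifferentiated state, at chr4:32238804-32586108, had 47.99, 53.3 and 47.8 CPM in the libraries labelled Tbet-KO, 452, 452 and 464 CPM in WT Treg libraries and 1685, 1686 and 1701 CPM in No Tumor libraries. Its log2 fold change of -5.08 ± 0.03 had an edgeR adjusted p of 1.1e-96. Of 14 tested naive and quiescent T cell genes 4 were higher and 9 lower (median log2 fold change -1.09, -2.65 with T cell gene scaling). Lef1, a Wnt-pathway factor, had 65.9, 64.4 and 60.01 CPM in the libraries labelled Tbet-KO and 268, 273 and 263 CPM in No Tumor libraries (log2 fold change -2.08), Foxp1 196, 199 and 195 CPM and 712, 681 and 688 CPM (-1.82), and Klf2, which keeps T cells quiescent, fell by 1.13. Tcf7, which encodes the T cell factor TCF-1, went against them with 68.6, 63.0 and 65.1 CPM in the libraries labelled Tbet-KO and 26.6, 30.8 and 33.8 CPM in No Tumor libraries, higher by 1.11 ± 0.08 (edgeR adjusted p = 1.8e-22) under TMM and lower by 0.45 with T cell gene scaling. Bach2, Lef1, Foxp1 and Il7r are also expressed by B cell progenitors, whose genes fell in these libraries, and their part in the result was not tested.

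Genes of the B lineage were far lower. All 21 tested B lineage identity genes were lower in the libraries labelled Tbet-KO. So were all 15 tested genes of the list named for antigen receptor recombination and the surrogate light chain. Median log2 fold changes were -4.70 and -4.87, and all of these genes were lower with T cell gene scaling too. Besides recombination and surrogate light chain genes, the second list holds Erg, Sox4, Il7r, Lef1, Myb, Smarca4, Bcl7a and Arpp21. Il7r and Lef1 are also in the naive T cell list, and Myb is in the MLL fusion target list. Rag1, the recombinase of developing lymphocytes, had 12.7, 16.2 and 16.0 CPM in the libraries labelled Tbet-KO, 225, 239 and 227 CPM in WT Treg libraries and 1004, 1036 and 986 CPM in No Tumor libraries (log2 fold change -6.07 ± 0.04, edgeR adjusted p = 4.3e-92). The WT Treg libraries lay between the other groups in Rag1, with no overlap. The B cell commitment factors Pax5 and Ebf1 averaged 4.93 and 15.9 CPM in the libraries labelled Tbet-KO and 252 and 741 CPM in No Tumor libraries. Vpreb1, Igll1 and Dntt, which progenitors of B cells express, averaged 0.380, 4.30 and 1.11 CPM in the libraries labelled Tbet-KO and 36.1, 167 and 98.7 CPM in No Tumor libraries. Bank1 and Btk, which myeloid cells also express, changed least, by -0.41 and -0.79. Of 3 tested gamma delta T cell genes 2 were higher and 1 lower (median log2 fold change 1.14, -0.41 with T cell gene scaling), the lower one being Blk, a kinase of B cells, at -5.41.

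Plasma cell genes were divided under TMM scaling. Of 12 tested genes 6 rose and 5 fell in the libraries labelled Tbet-KO (median log2 fold change 0.20). With T cell gene scaling 1, Jchain, was higher and 11 were lower (median -1.35), where 88% of all tested genes were lower. Jchain, which joins secreted immunoglobulin chains and is also transcribed in lymphoid progenitors, had 277, 278 and 270.0 CPM in the libraries labelled Tbet-KO, 40.7, 39.9 and 41.9 CPM in WT Treg libraries and 25.8, 23.4 and 23.6 CPM in No Tumor libraries (log2 fold change 3.51 ± 0.06, edgeR adjusted p = 3.2e-64). Mzb1, a chaperone of immunoglobulin assembly, had 2.19, 3.01 and 2.55 CPM in the libraries labelled Tbet-KO, 12.8, 12.3 and 13.2 CPM in WT Treg libraries and 40.8, 42.4 and 43.5 CPM in No Tumor libraries (log2 fold change -4.02 ± 0.14, edgeR adjusted p = 1.5e-41). These 2 genes moved in opposite directions under both scalings, at 1.95 and -5.58 with T cell gene scaling.

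Several genes that MLL fusion proteins activate were higher in the libraries labelled Tbet-KO, and of these Hoxa9 and Mecom were at or near 1 CPM or less without leukemia. Of 19 tested MLL fusion target and progenitor genes 15 were higher and 4 lower, with a median log2 fold change of 2.56 (1.004 with T cell gene scaling, 10 higher and 7 lower). Hoxa9, a homeobox gene that MLL fusions keep on, had 44.7, 42.9 and 39.6 CPM in the libraries labelled Tbet-KO, 18.0, 17.6 and 19.3 CPM in WT Treg libraries and 1.38, 1.09 and 1.18 CPM in No Tumor libraries (log2 fold change 5.12 ± 0.16, edgeR adjusted p = 1.1e-44). Its partner Meis1 had 104, 107 and 114, 42.1, 48.03 and 48.9 and 7.21, 6.72 and 6.91 CPM in the same groups (log2 fold change 3.96 ± 0.09, edgeR adjusted p = 1.9e-54). Mecom, a stem cell factor, had 29.3, 34.0 and 34.1, 15.1, 15.8 and 17.03 and 0.437, 0.242 and 0.460 CPM. For each of the 3 genes the libraries labelled Tbet-KO were highest and the No Tumor libraries lowest, with no overlap. The progenitor receptors Cd34 and Flt3 rose by 2.93 and 2.56, and Myb and Gfi1b, which normal progenitors express, fell by 1.34 and 1.86 on the log2 scale. The sort gate was for CD4+CD25+ T cells, and the part of leukemia cells among the sequenced cells was not tested.

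**Figure D3:**
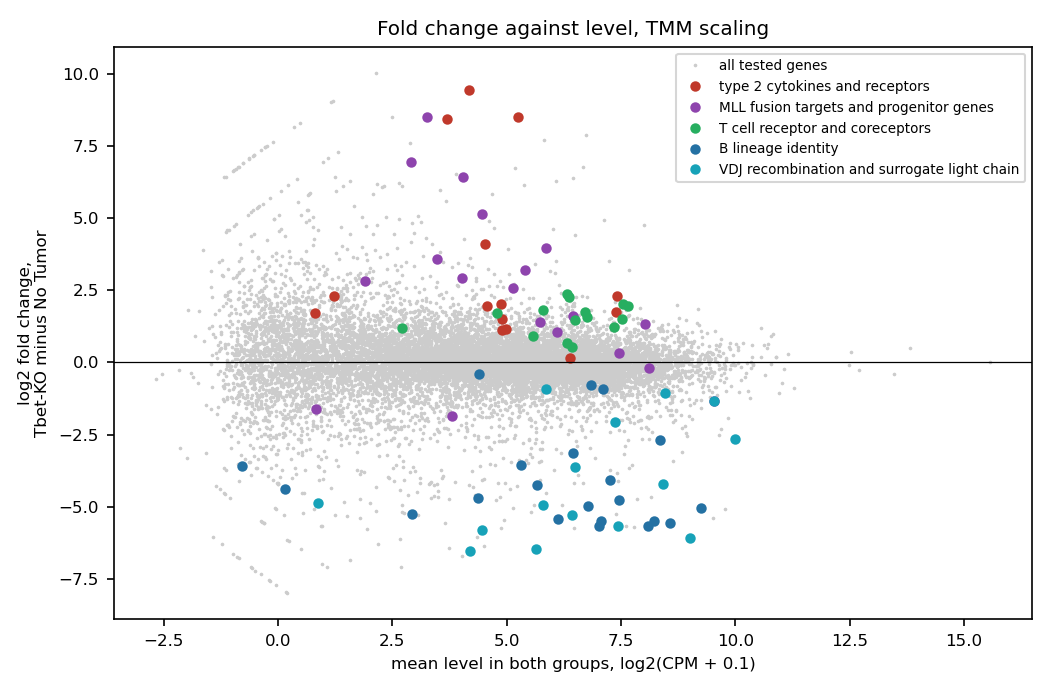
Log2 fold change of the libraries labelled Tbet-KO over No Tumor (y axis, TMM scaling) against the mean level in both groups (x axis, log2 of CPM plus 0.1) for all 13782 tested genes in grey and 5 lists in color. Type 2 genes and MLL fusion targets reach log2 fold changes above 5, B lineage and recombination genes lie below 0, and fitted values of genes with few counts, the straight grey streaks at the left, depend on the prior count.

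Myeloid lists differed by cell type. All 9 tested genes of the list for neutrophil primary granules, which promyelocytes make, were higher in the libraries labelled Tbet-KO. The median log2 fold change was 1.52, or -0.038 with T cell gene scaling. Mpo, Elane, Prtn3 and Ctsg were at 1.85 to 3.21. The other members, Ms4a3, Gfi1, Cebpe, Fcnb and Hp, which are not all granule genes, were at 0.71 to 1.52. Elane, neutrophil elastase, had 367, 353 and 381 CPM in the libraries labelled Tbet-KO, 192, 183 and 184 CPM in WT Treg libraries and 38.5, 42.4 and 38.01 CPM in No Tumor libraries (log2 fold change 3.21 ± 0.05, edgeR adjusted p = 9.5e-69), and Mpo, myeloperoxidase, averaged 902 ± 11.3 CPM in the libraries labelled Tbet-KO and 250.04 ± 5.98 CPM in No Tumor libraries. Genes of later granules were near parity, with 8 of 17 higher and 6 lower, 82.4% called against 64.2% of all tested genes (median log2 fold change -0.02, -1.58 with T cell gene scaling). Monocyte and macrophage genes were mostly higher, with 21 of 26 higher and 3 lower (median log2 fold change 0.74, -0.82 with T cell gene scaling), among them Ly6c2 of classical monocytes at 1.46 and Cd163 of resident macrophages at 1.26. Conventional dendritic cell genes had 6 of 10 higher and 3 lower (median log2 fold change 0.72, -0.84 with T cell gene scaling), with the cross-presenting cell genes Xcr1 and Clec9a lower by 2.54 and 1.67 in log2 units. Plasmacytoid dendritic cell genes had 3 of 14 higher and 7 lower, 71.4% called against 64.2% of all tested genes (median log2 fold change -0.39, -1.94 with T cell gene scaling), with the receptor gene Siglech at -2.33.

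Eosinophil genes were also higher. Of 9 tested genes 8 rose and 0 fell in the libraries labelled Tbet-KO (median log2 fold change 0.87, -0.69 with T cell gene scaling). Epx, eosinophil peroxidase, had 589, 570.4 and 576 CPM in the libraries labelled Tbet-KO, 169, 169 and 174 CPM in WT Treg libraries and 298, 296 and 292 CPM in No Tumor libraries (log2 fold change 0.97 ± 0.03, edgeR adjusted p = 1.6e-43), so the WT Treg libraries of leukemic marrow were below both other groups. Siglecf, an eosinophil surface lectin, had 24.5, 23.5 and 24.9 CPM in the libraries labelled Tbet-KO, 12.3, 10.3 and 12.2 CPM in WT Treg libraries and 7.65, 7.57 and 7.37 CPM in No Tumor libraries (log2 fold change 1.69). Il5ra, the IL-5 receptor gene, was not called, at 8.19, 11.8 and 9.48 CPM in the libraries labelled Tbet-KO and 9.91, 7.99 and 11.05 CPM in No Tumor libraries.

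Erythroid genes were lower, and platelet and stromal genes were less uniform. All 14 tested erythroid genes were lower in the libraries labelled Tbet-KO (median log2 fold change -2.04, -3.60 with T cell gene scaling). Slc4a1, the anion exchanger of red cells, had 92.2, 91.6 and 92.8 CPM in the libraries labelled Tbet-KO, 518, 549 and 529 CPM in WT Treg libraries and 480.1, 492 and 494 CPM in No Tumor libraries (log2 fold change -2.41 ± 0.04, edgeR adjusted p = 4.2e-69), and the factor Klf1 fell by 2.61 on the log2 scale. In Slc4a1 the WT Treg libraries lay above the No Tumor libraries. Of 12 tested megakaryocyte and platelet genes 1 was higher and 1 lower, 16.7% called against 64.2% of all tested genes (median log2 fold change -0.05, -1.60 with T cell gene scaling). Of 18 tested stromal, endothelial and osteoblast genes 4 were higher and 9 lower, 72.2% called against 64.2% of all tested genes (median log2 fold change -0.65, -2.21 with T cell gene scaling). Cxcl12, the chemokine that retains stem cells in marrow, had 25.5, 24.7 and 22.1 CPM in the libraries labelled Tbet-KO, 101, 112 and 104 CPM in WT Treg libraries and 74.7, 81.1 and 77.5 CPM in No Tumor libraries (log2 fold change -1.69 ± 0.07, edgeR adjusted p = 1.3e-35).

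**Figure D4:**
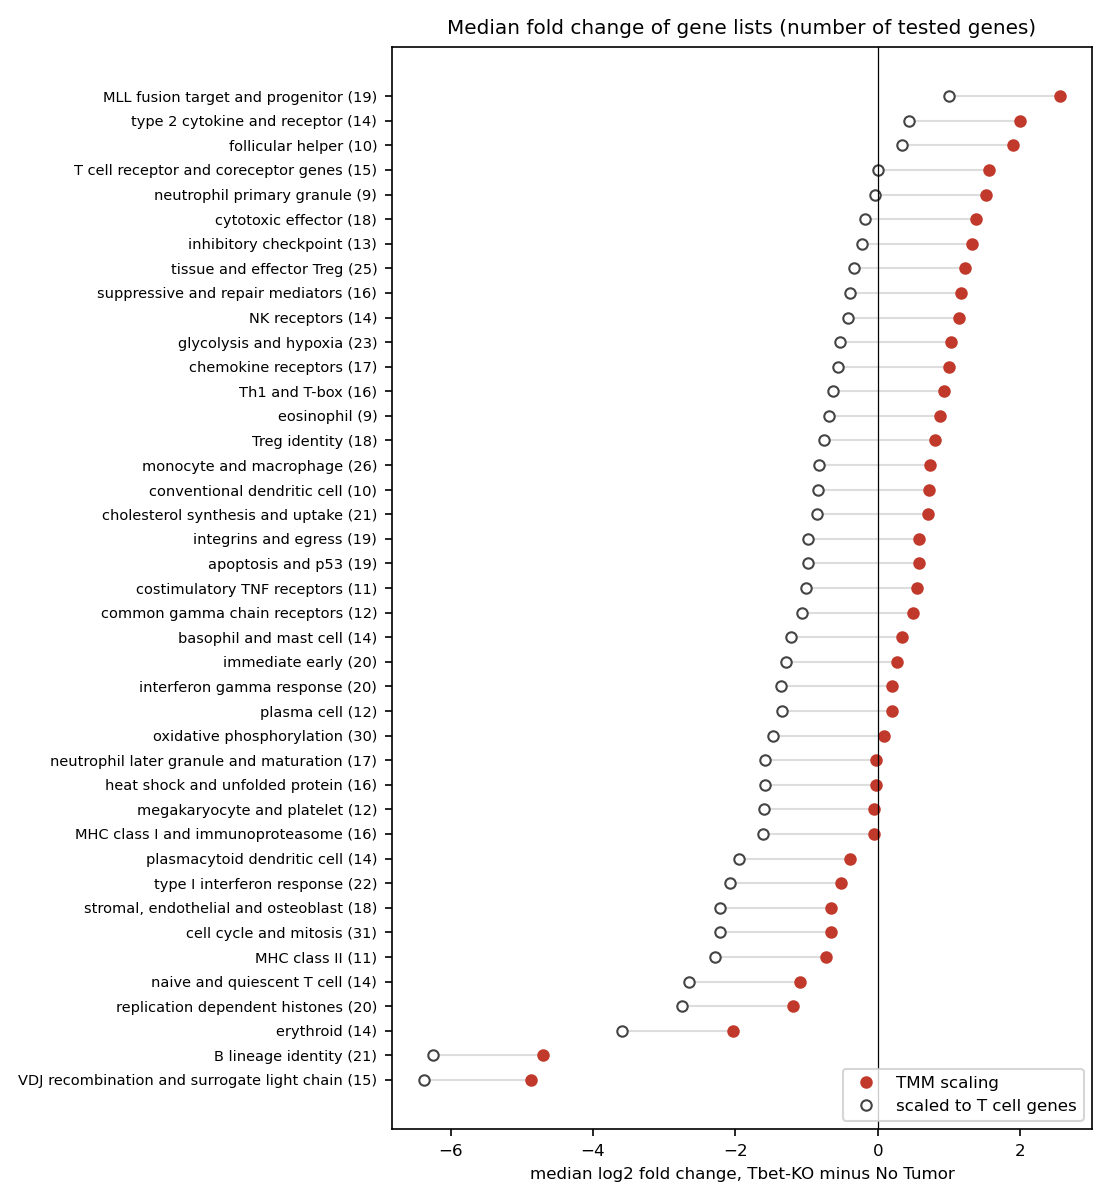
Median log2 fold change of the libraries labelled Tbet-KO over No Tumor for each gene list with 8 or more tested genes (number tested in brackets), with TMM scaling as filled points and scaling to T cell receptor genes as open points. Scaling moves each median by about -1.56, so type 2, follicular helper and MLL target lists stay above 0, B lineage, recombination and erythroid lists lie below 0 under both, and lists such as Treg identity (0.80 and -0.76) and cytotoxic effector (1.38 and -0.18) change sign.

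Proliferation genes were lower in the libraries labelled Tbet-KO. Of 31 tested cell cycle genes 1 was higher and 29 lower (median log2 fold change -0.66, -2.22 with T cell gene scaling), and all 20 replication-dependent histone genes were lower (median log2 fold change -1.19, -2.74 with T cell gene scaling). Mki67, which encodes the proliferation antigen Ki-67, had 1759, 1746 and 1730 CPM in the libraries labelled Tbet-KO, 2478, 2497 and 2477 CPM in WT Treg libraries and 3294, 3246 and 3171 CPM in No Tumor libraries (log2 fold change -0.89 ± 0.02, edgeR adjusted p = 1.1e-57). Hist1h1a, a linker histone, fell by 1.84 and Cenpf, a kinetochore protein, by 1.16 on the log2 scale. Dividing progenitors of other lineages are part of these libraries, and cell cycle genes cannot be assigned to Treg cells here.

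Metabolic genes moved by pathway. Of 23 tested glycolysis and hypoxia genes 21 rose and 0 fell in the libraries labelled Tbet-KO (median log2 fold change 1.03, -0.53 with T cell gene scaling), and of 21 tested cholesterol genes 17 were higher and 0 lower (median log2 fold change 0.71, -0.85 with T cell gene scaling). Gapdh, a glycolytic enzyme, had 1028, 1033 and 1019 CPM in the libraries labelled Tbet-KO, 922, 904 and 918 CPM in WT Treg libraries and 478, 488 and 493 CPM in No Tumor libraries (log2 fold change 1.08 ± 0.03, edgeR adjusted p = 1.9e-54), lower by 0.48 with T cell gene scaling. Fdps, a synthase of the mevalonate pathway, averaged 53.1 ± 1.40 CPM in the libraries labelled Tbet-KO and 14.5 ± 2.22 CPM in No Tumor libraries. Oxidative phosphorylation was near parity, with 10 of 30 genes higher and 3 lower (median log2 fold change 0.09, -1.47 with T cell gene scaling). The share called was 43.3%, below the 64.2% of all tested genes, of which 31.9% were higher and 32.3% lower. Antigen presentation was divided. Of 11 tested MHC class II genes 3 were higher and 6 lower (median log2 fold change -0.73, -2.29 with T cell gene scaling), with the class II transactivator Ciita at 12.3, 14.5 and 14.4 CPM in the libraries labelled Tbet-KO and 58.6, 48.6 and 49.1 CPM in No Tumor libraries, and of 16 tested MHC class I and immunoproteasome genes 7 were higher and 6 lower (median log2 fold change -0.06, -1.62 with T cell gene scaling).

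The genes that separated the groups most were partly outside these lists. Among called genes at 5 CPM or more, the 15 with the largest rise included Il13, Il5, Retnla, Mecom and Hoxa10 of the lists above and, outside them, Epha7, an ephrin receptor with 211, 217 and 209.8 CPM in the libraries labelled Tbet-KO, 89.2, 96.2 and 91.5 CPM in WT Treg libraries and 1.24, 0.787 and 0.723 CPM in No Tumor libraries (log2 fold change 7.87 ± 0.11, edgeR adjusted p = 1.9e-72). Lgr6, an R-spondin receptor, had 8.31, 8.79 and 8.63 CPM in the libraries labelled Tbet-KO, 3.72, 2.33 and 3.60 CPM in WT Treg libraries and no count in the No Tumor libraries, and was at least 130-fold higher against a floor of 3 counts over the No Tumor group. The collagen gene Col19a1 averaged 111 ± 3.20 CPM in the libraries labelled Tbet-KO and 0.523 ± 0.0844 CPM in No Tumor libraries, the desmosome gene Dsp 71.8 ± 1.87 CPM and 0.696 ± 0.659 CPM. The cysteine protease inhibitor genes Stfa2 and BC100530 averaged 173 and 201 CPM in the libraries labelled Tbet-KO and 2.05 and 1.85 CPM in No Tumor libraries. They belong to a family of near-identical genes that can share reads, and their split is uncertain. The embryonic globin gene Hbb-y had 14.2, 14.99 and 14.3, 29.5, 32.4 and 29.7 and 0, 0.121 and 0.0658 CPM in the libraries labelled Tbet-KO, WT Treg and No Tumor, so it was higher in both leukemic groups, and the citrate transporter gene Slc13a5 had 10.9, 10.03 and 12.1, 2.59, 1.42 and 2.65 and 0.0728, 0 and 0 CPM.

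At the other end, the 15 genes with the largest fall included Vpreb1, Dntt, Rag1 and Arpp21 of the recombination list and, outside the lists, the protocadherin gene Pcdh9 with 0.0625, 0.0590 and 0.142 CPM in the libraries labelled Tbet-KO, 2.16, 2.46 and 2.24 CPM in WT Treg libraries and 12.7, 11.99 and 13.2 CPM in No Tumor libraries (log2 fold change -7.08 ± 0.42, edgeR adjusted p = 1.1e-26). The formin gene Fmn2 had 0.312, 0.295 and 0.283 CPM in the libraries labelled Tbet-KO and 36.6, 28.9 and 31.0 CPM in No Tumor libraries, and the GDNF receptor gene Gfra1 3.06, 3.54 and 3.18 CPM and 166, 174 and 182 CPM. In all, 24 genes were under 0.5 CPM in every No Tumor library and averaged 5 CPM or more in the libraries labelled Tbet-KO, and 13 genes showed the opposite. The 30 genes that the study draws or names for these libraries, which were chosen on these samples and are not independent evidence, had 22 higher and 8 lower, with a median log2 fold change of 1.70 (0.14 with T cell gene scaling, 13 higher and 12 lower).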

How the data were processed

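Bulk RNA-seq counts of 12 libraries were analysed, 3 per group, and the 6 labelled Tbet-KO Treg and No Tumor were compared. The authors removed ribosomal RNA, sequenced paired ends on a NovaSeq, and, per the study's methods and the submitters' processing notes, checked reads with FastQC, aligned them to mm10 with STAR and counted them per UCSC refGene gene with featureCounts. They deposited raw counts and log2 FPKM values computed with edgeR. The deposited table holds 14259 genes. Strand use in counting is not given in the sources used here. The deposited log2 FPKM values equal log2 CPM (prior count 2) minus a fixed amount for each gene. Annotation starts and spans were taken from GENCODE M21 (GRCm38) and promoters from RefSeq (GRCm38.p6).

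Counts were fitted with edgeR 4.0.16 (R 4.3.3, quasi-likelihood, TMM, filterByExpr over 4 groups, all 12 libraries in 1 fit), and p-values were adjusted by Benjamini-Hochberg over 13782 genes. Genes were counted at an adjusted p of 0.05, alone or with a log2 fold change beyond 1, and single genes and list members at an adjusted p of 0.05. Lists were described by counts of called members and medians without a test. Gene totals were 13782061 to 17101634 counts per library in the 2 groups, and counting intervals are exact at 95% and cover counting error only. The method was tested on simulated data in which a small set of genes was changed, evenly up and down. Such data cannot speak to the choice of scaling. Members, the 46 lists and 2 added lists, and the rule for named genes were chosen with earlier results of these data known. The rule took Tbx21 and Il1rl1, the 15 called genes per direction with the largest fold change at 5 CPM or more without overlap, up to 4 called members and 3 members not called per list, genes drawn by the study, and neighbours of Tbx21. Genes named outside it (Bank1, Bcl6, Btk, Ccr4, Ccr7, Cd2, Cd34, Cxcl9, Cxcr3, Foxp3, Gapdh, Gata2, Gfi1b, Hlx, Ifih1, Ifng, Igll1, Il17rb, Il2ra, Il4ra, Kit, Klf2, Ltf, Mcpt8, Meis1, Mki67, Myb, Nmur1, Prss34, Rn45s, Slamf6, Socs2, Tcf7 and Tgfb1) were chosen after their values were seen. Alternatives were other scalings (RLE, T cell genes, reduced gene sets), DESeq2 1.42.0, limma 3.58.1 on the log2 FPKM values, other filters, the 6 libraries alone, a replicate block and leaving out each library. Figures were drawn with matplotlib 3.10.9 under Python 3.11.15.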

Additional observations from a re-analysis of the deposited data

How the results depend on the processing

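Scaling to T cell receptor genes was the setting that turned directions, by construction, since it moved the median of all genes by -1.56. With it 265 genes rose and 10699 fell in the libraries labelled Tbet-KO by adjusted p and a log2 fold change beyond 1, against 1488 and 1317 under TMM, and Tbx21 was called lower, at -1.64 (edgeR adjusted p = 8.9e-24). Without a minimum on the fold the counts were 4396 and 4456, and with a log2 fold change beyond 2 they were 510 and 524. Under RLE, DESeq2, limma, other filters, the 6 libraries alone and reduced gene sets for scaling the counts were 1304 to 1542 higher and 1157 to 1349 lower. Leaving out each library gave 1445 to 1511 higher, 1266 to 1318 lower, and a Tbx21 log2 fold change of -0.22 to 0.02, above 0 without No Tumor replicate 2. Replicate numbers did not pair the libraries (correlations of deviations -0.0004 to 0.016), and with the replicate block 1489 genes were higher, 1309 lower, and 2774 genes were shared with the fit without it.

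List medians that were above 0 under TMM and below 0 with T cell gene scaling were, on that scaling, -0.76 for Treg identity, -0.34 for tissue and effector Treg, -0.18 for cytotoxic effector, -0.63 for Th1 and T-box, -0.55 for Th17, -0.23 for checkpoints, -1.01 for costimulatory TNF receptors, -0.55 for chemokine receptors, -1.07 for common gamma chain receptors, -0.42 for NK receptors, -0.41 for gamma delta T cells, -0.84 for conventional dendritic cells, -0.038 for primary granules, -0.82 for monocytes and macrophages, -0.69 for eosinophils, -0.53 for glycolysis, -0.85 for cholesterol, -1.28 for immediate early genes, -0.98 for apoptosis and p53, -0.39 for suppressive mediators, -0.98 for integrins, -0.052 for the response to IL-4 and IL-13, -1.36 for the interferon gamma response, -1.35 for plasma cells, -1.22 for basophils and mast cells, -1.47 for oxidative phosphorylation and -1.16 for sex-linked genes. Genes that turned below 0 in the same way were Ccr3 (-0.45), Ccr4 (-0.068), Cd163 (-0.30), Cd2 (-1.01), Cxcl9 (-1.22), Ebi3 (-0.48), Epx (-0.59), Foxp3 (-0.83), Gapdh (-0.48), Gata2 (-0.89), Hspa1a (-0.11), Ifih1 (-0.71), Ifng (-0.59), Il2ra (-0.97), Il4ra (-1.40), Il5ra (-1.52), Itgae (-1.49), Kit (-0.51), Lrrc32 (-1.53), Ly6c2 (-0.10), Nrp1 (-0.32), Osbpl7 (-1.36), Rn45s (-1.55), Tbkbp1 (-0.40) and Tcf7 (-0.45).

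Over the 140 genes named, 2077 of 2091 values under the other alternatives kept their side of the threshold, 10 lost the call and 4 gained it, and 0 called values turned. In 9 values, all of genes not called (Tbx21, Il5ra, Lrrc32, Itgae and Rn45s) and all with 1 library left out, the sign changed without a call. Single libraries decided the calls of Osbpl7 (lost without Tbet-KO Treg replicate 2 or 3 or No Tumor replicate 1 or 3, at 0.14 to 0.19), Cxcl9 (lost without No Tumor replicate 1, at 0.26, or 3, at 0.30), Hspa1a (lost without No Tumor replicate 2, at 1.15), Il4ra (lost without No Tumor replicate 3), Cd8a (gained without Tbet-KO Treg replicate 2, at -0.52) and Rn45s (gained without Tbet-KO Treg replicate 1 or No Tumor replicate 3, at 0.05 and 0.04). Genes with 3 counts or fewer in a group, such as Il5 and Retnla, are limited by depth to a wide interval of the ratio.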

Other observations

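Stress and survival genes gave a mixed picture in the libraries labelled Tbet-KO. Of 20 tested immediate early genes 11 were higher and 7 lower (median log2 fold change 0.27, -1.28 with T cell gene scaling). Egr3, an effector of T cell receptor signaling, rose by 1.77, or 0.22 with T cell gene scaling, and Btg2 and Jun fell by 1.73 and 1.42 on the log2 scale. Of 19 tested apoptosis and p53 genes 13 were higher and 4 lower (median log2 fold change 0.57, -0.98 with T cell gene scaling). Pmaip1, a killer protein of the p53 pathway, rose by 1.72 and the survival gene Bcl2 by 1.62, or 0.17 and 0.06 with T cell gene scaling, and Bcl2l1, a related survival gene, had 43.1, 45.1 and 44.01 CPM in the libraries labelled Tbet-KO and 115, 119.9 and 119 CPM in No Tumor libraries (log2 fold change -1.42 ± 0.06, edgeR adjusted p = 7.4e-36). Of 16 tested heat shock and unfolded protein genes 7 were higher and 4 lower (median log2 fold change -0.03, -1.59 with T cell gene scaling). The share called, 68.8%, was near the 64.2% of all tested genes. The chaperone Hspa1a was at 1.12, 1.18 and 0.920 CPM in the libraries labelled Tbet-KO and 0.364, 0.242 and 0.592 CPM in No Tumor libraries (edgeR adjusted p = 0.013, or 0.072 without No Tumor replicate 2).

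Sex-linked genes were compared as well. Xist, the RNA of the inactive X chromosome, had 5967, 6071 and 6046 CPM in the libraries labelled Tbet-KO and 7250, 7228 and 7333 CPM in No Tumor libraries (log2 fold change -0.27, edgeR adjusted p = 4.8e-28). Ddx3y, a Y-linked helicase gene, had 1.12, 0.826 and 0.708 CPM in the libraries labelled Tbet-KO and 0, 0.194 and 0.0679 CPM in WT Treg libraries, with 42 counts in the 3 libraries labelled Tbet-KO and no count in No Tumor libraries, at least 13.5-fold higher against a floor of 3 counts over the No Tumor group. The 3 tested sex-linked genes comprised 1 higher (Ddx3y), 1 lower (Xist) and Tsix, which was not called. The summed level of the list, set by Xist, was 5970 to 6073 CPM in the libraries labelled Tbet-KO and 7229 to 7333 CPM in No Tumor libraries.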
